A study of Mus musculus with 9 samples.

Results

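Branched chain amino acid breakdown was examined in fat tissue from around the mouse prostate through 32 genes of leucine, isoleucine and valine catabolism, of the propionate pathway that follows it and of ketone body use. The genes were chosen by name for their roles, with earlier results of these data known. A gene was read from probe sets with exactly 1 gene symbol, keeping the brightest on average. All 32 were found among 22180 measured genes, with Mut carried under its current symbol Mmut. A high fat diet (60 kcal% fat) was given to 5 male C57BL/6J mice and a low fat diet (10 kcal% fat) to 4. Both diets began at 6 weeks of age and ran for 12 weeks, food was freely available, and all tissue was taken at 18 weeks. RNA of each mouse was hybridised to 1 Affymetrix Mouse Gene 2.0 ST array, and values are log2 expression. The labels name a separate mouse for each array, so the spread within a diet is between animals of 1 strain and sex.

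Fat cells are known as one of the sites where branched chain amino acids are broken down. In mitochondria, Bcat2 moves the amino group of leucine, isoleucine and valine to 2-oxoglutarate, and the branched chain ketoacid dehydrogenase complex then commits the carbon skeletons to breakdown. A kinase, Bckdk, switches that complex off by phosphorylation, and a phosphatase, Ppm1k, switches it on. Leucine ends in acetyl-CoA and acetoacetate, valine in propionyl-CoA, and isoleucine in both acetyl-CoA and propionyl-CoA. Propionyl-CoA enters the tricarboxylic acid cycle as succinyl-CoA through steps that need biotin and cobalamin.

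The tissue label was checked against marker lists. The mean log2 value over 10 adipocyte genes was 11.6 to 11.8 in high fat mice and 12.1 to 12.2 in low fat mice. Over 9 measured prostate and seminal vesicle genes it was 5.62 to 5.71 in high fat mice and 5.55 to 5.69 in low fat mice, below the medians of the arrays over all genes (6.91 to 6.98). Krt8 of that list lay above those medians, at 7.47 to 8.24 in high fat and 7.38 to 7.88 in low fat mice. Krt18 lay near them, at 6.89 to 7.51 and 6.92 to 7.34. Mesothelium genes averaged 8.24 to 9.58 in high fat and 7.83 to 8.88 in low fat mice. Which cells gave the keratin signal was not tested. Skeletal muscle genes averaged 8.80 in high fat mouse 1, where the rest of that diet lay at 6.71 to 6.80, and 7.60 in low fat mouse 4, where the rest lay at 6.71 to 6.84. Smooth muscle genes averaged 10.2 in low fat mouse 2, while mice 1, 3 and 4 of that diet lay at 8.14 to 8.22. The brown fat list mean was 6.89 to 7.56 in high fat mice, 7.82 in low fat mouse 2 and 6.69 to 6.94 in the rest of the low fat diet. Its gene Ucp1 was at 5.89 to 5.97 in high fat mice, at 7.72 in low fat mouse 2 and at 5.66 to 5.74 in the rest. Of the 7 genes on that list, the diet test described below called 1 lower, Cidea (1.99-fold), and 1 higher, Otop1 (3.79-fold). Ucp1 did not pass. High fat mice 1 and 2 also had the widest distributions of values.

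Of the 32 genes, 24 fell in high fat diet, 1 rose and 7 did not pass the test on the values as deposited, whereas with each array centred on the 10 adipocyte genes 13 were lower, 10 higher and 9 not called. That centring shifts every gene up alike, and over all genes it gave 1.17% lower and 92.6% higher, so a call of higher on that scale is not particular to these genes. Over all genes 9.13% were called lower and 12.4% higher on the values as deposited. The test was limma with Benjamini-Hochberg adjustment over all genes and a threshold of 0.05 on the adjusted p. The median difference of the 32 genes, high fat minus low fat, was -0.52 on the log2 scale, against -0.0011 over all genes. In 23 of the 32 genes every high fat mouse lay below every low fat mouse, against 9.15% of all genes. The 32 genes were chosen with earlier results of these data known, so these contrasts with all genes are description only. In bulk tissue, fewer cells of a type and less RNA per cell cannot be told apart. The called split over all genes was 2742 higher and 2026 lower, and a second round of quantile normalization gave 2320 higher and 2771 lower, and it was 2227 higher and 3056 lower with arrays centred on their medians.

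**Figure D1:**
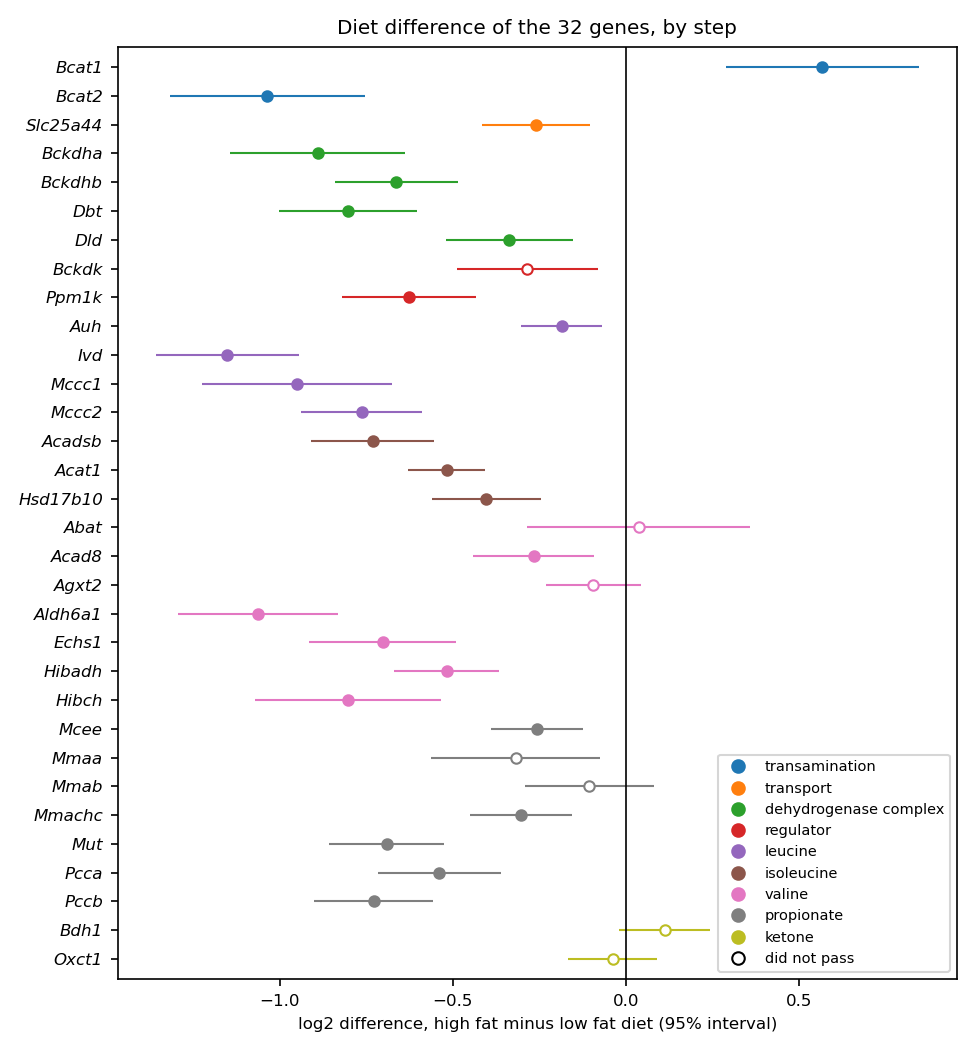
Log2 difference between high fat and low fat diet for each of the 32 genes on the values as deposited, ordered and coloured by step, with its 95% confidence interval. Of the 24 genes that fell, Ivd, Aldh6a1 and Bcat2 lay beyond -1, and Bcat1 alone rose; relative to the adipocyte genes 13 were lower and 10 higher, against 1.17% and 92.6% of all genes.

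Ivd, Aldh6a1 and Bcat2 had the largest decreases, each over 2-fold, and Bcat1 was the one gene that rose. The sequences before their RefSeq starts are shown because these 4 genes mark the extremes of the set. Each is the 250 bases before the outermost annotated start in GRCm38.p6, written 5′ to 3′ in the direction of transcription. Capitals mark matches on either strand to any of 6 motifs. They are CCAAT (the CCAAT box), CCACCC (a site type of KLF factors), GGGCGG (a GC box), AGGTCA (letters bound by nuclear receptors), AAGGTCA (the core site of estrogen-related receptors, which contains the letters before it) and GCGCANGCG (the NRF1 core). Ivd lies at chr2:118861744-118861993 on the plus strand, Aldh6a1 at chr12:84451025-84451274 on the minus strand, Bcat2 at chr7:45569903-45570152 on the plus strand and Bcat1 at chr6:145076158-145076407 on the minus strand.
Ivd: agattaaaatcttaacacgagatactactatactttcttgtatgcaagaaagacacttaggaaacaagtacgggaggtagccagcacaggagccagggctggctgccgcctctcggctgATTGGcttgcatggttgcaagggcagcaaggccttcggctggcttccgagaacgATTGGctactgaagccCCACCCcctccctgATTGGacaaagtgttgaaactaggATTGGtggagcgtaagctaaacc
Aldh6a1: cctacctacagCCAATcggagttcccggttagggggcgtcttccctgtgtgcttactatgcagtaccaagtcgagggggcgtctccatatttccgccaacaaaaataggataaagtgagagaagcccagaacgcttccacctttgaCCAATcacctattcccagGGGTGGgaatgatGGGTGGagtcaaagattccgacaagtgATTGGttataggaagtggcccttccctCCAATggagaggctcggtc
Bcat2: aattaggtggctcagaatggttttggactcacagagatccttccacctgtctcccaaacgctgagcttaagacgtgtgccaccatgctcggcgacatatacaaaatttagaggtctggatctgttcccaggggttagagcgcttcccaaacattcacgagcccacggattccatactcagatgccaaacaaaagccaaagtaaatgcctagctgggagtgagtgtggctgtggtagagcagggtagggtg
Bcat1: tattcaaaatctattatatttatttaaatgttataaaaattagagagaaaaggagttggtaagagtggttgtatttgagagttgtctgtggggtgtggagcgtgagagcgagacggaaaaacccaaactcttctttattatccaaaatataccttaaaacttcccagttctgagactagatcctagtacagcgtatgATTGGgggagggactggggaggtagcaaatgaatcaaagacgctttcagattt

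The Ivd and Aldh6a1 windows held matches to CCAAT and CCACCC, the Bcat1 window 1 match to CCAAT, and the Bcat2 window none to these letters. Aldh6a1, Bcat1 and Bcat2 each have another annotated start, whose window is not shown. That window held AGGTCA and CCAAT for Aldh6a1, AGGTCA but not CCAAT for Bcat1, and none of the motifs for Bcat2. Promoter entries were available for 27 of the 32 genes. Among 24 entries of 20 genes that fell, 14 held CCAAT (58.3%), against 33.8% of all 32851 entries, and 13 held GGGCGG (54.2%), against 32.7% of all. CCACCC was in 7 of the 24 entries (29.2%, against 28.1% of all), AGGTCA in 5 (20.8%, against 14% of all), GCGCANGCG in 2 (8.33%, against 5.16% of all) and AAGGTCA in none (4.08% of all). These shares describe letters in the windows and were not tested.

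The 2 transaminase genes moved in opposite directions. Bcat2, the mitochondrial enzyme, was at 9.94, 9.85, 9.58, 9.91 and 9.65 in high fat mice 1 to 5, against 10.6, 11.2, 10.7 and 10.8 in low fat mice 1 to 4. No high fat mouse reached the low fat range, and Bcat2 was 2.05-fold lower, with a log2 difference of -1.04 ± 0.13 (SE, limma adjusted p = 0.000392). Bcat1, the cytosolic enzyme, was at 8.10, 8.01, 8.01, 7.95 and 7.97 in high fat mice, against 7.73, 6.99, 7.48 and 7.57 in low fat mice. All 5 high fat mice were close together and above the low fat mice, which were spread out with mouse 2 lowest. Bcat1 was 1.48-fold higher (0.57 ± 0.12, SE, limma adjusted p = 0.00941). Without high fat mice 1 and 2 Bcat1 no longer passed (log2 difference 0.54, limma adjusted p = 0.062), and without low fat mouse 2 its difference was 0.42 and passed (limma adjusted p = 0.00234).

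The diet difference of Bcat2 minus that of Bcat1 was -1.61 on the log2 scale in a two-sided exact permutation test over the 9 mice (p = 0.0159, adjusted p = 0.0476 over 6 pairs of genes). The smallest p that the assignments of mice to diets allow is 0.0159. As each gene alone already separated the diets, in opposite directions, their difference had to give this p. The 6 pairs were also chosen with earlier results of these data known. The p therefore adds nothing to the values of Bcat2 and Bcat1 themselves. Leaving out any 1 mouse kept the direction, at -1.79 to -1.33, but no adjusted exact permutation p passed (0.0536 to 0.107); with 1 mouse fewer the smallest possible p is 0.0286 or 0.0357.

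Slc25a44, which carries branched chain amino acids into mitochondria, was at 9.15, 9.12, 9.17, 9.22 and 9.12 in high fat mice, against 9.29, 9.64, 9.43 and 9.30 in low fat mice. High fat mice lay in a narrow range just under the low fat mice. It was 1.20-fold lower (-0.26 ± 0.07, SE, limma adjusted p = 0.0253). The call was lost in 4 of the 9 fits that left out 1 mouse and without high fat mice 1 and 2 (-0.25, limma adjusted p = 0.114). Relative to the adipocyte genes Slc25a44 turned to 0.22, less than the median shift of all genes on that scale (0.48).

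Of the dehydrogenase complex, all 4 subunit genes fell on the values as deposited, and Dld turned to 0.15 relative to the adipocyte genes without passing. Bckdha, which encodes the alpha subunit of the decarboxylase, was at 9.25, 9.19, 8.96, 9.18 and 8.96 in high fat mice and at 9.80, 10.3, 9.84 and 10.0 in low fat mice. The groups stood well apart, and Bckdha was 1.85-fold lower (-0.89 ± 0.11, SE, limma adjusted p = 0.000491). Dbt, the transacylase core, was 1.74-fold lower (-0.80 ± 0.09, SE) and Bckdhb, the beta subunit of the decarboxylase, 1.58-fold lower (-0.66 ± 0.08, SE), with limma adjusted p of 0.000259 and 0.000352 in that order. Dld, the dihydrolipoamide dehydrogenase that the pyruvate and 2-oxoglutarate dehydrogenases also use, was at 10.2, 10.1, 10.0, 9.99 and 9.88 in high fat mice, against 10.4, 10.5, 10.2 and 10.5 in low fat mice. Low fat mouse 3 lay just under high fat mouse 1, and the difference was smaller, 1.26-fold lower (-0.34 ± 0.08, SE, limma adjusted p = 0.0157).

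In array signal Bckdha fell further than Bckdhb, its partner in the same enzyme, by -0.23 on the log2 scale (exact permutation p = 0.0159, adjusted p = 0.0476 over 6 pairs). In all 6 pairs the genes are read from different probe sets, and whether these respond alike was not tested. The call was lost with any 1 mouse left out, as for the transaminases. With 1 mouse fewer, a pair at the smallest possible p passes adjustment over 6 pairs only if several other pairs reach it too. The loss therefore says little about either pair. The size of the gap was -0.28 to -0.19 except without low fat mouse 2, where it was -0.11.

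Both regulators of the complex had lower means in high fat diet, and the phosphatase passed the test. Ppm1k was at 8.37, 8.10, 7.91, 8.12 and 8.06 in high fat mice, against 8.81, 8.64, 8.66 and 8.85 in low fat mice. The groups did not overlap, and Ppm1k was 1.54-fold lower (-0.63 ± 0.09, SE, limma adjusted p = 0.000785), although relative to the adipocyte genes it did not pass (-0.14). Bckdk, the kinase, was at 10.1, 10.3, 10.2, 9.95 and 9.91 in high fat mice and at 10.3, 10.6, 10.3 and 10.3 in low fat mice. The highest high fat mouse, mouse 2, touched the lowest low fat mouse, mouse 3. The difference of -0.28 (95% confidence interval -0.49 to -0.08) had a limma adjusted p of 0.0517, and it passed at 0.02 with quantile normalization repeated (-0.34) but turned to 0.20 without passing relative to the adipocyte genes. The difference of Bckdk minus that of Ppm1k was 0.34, which did not pass (exact permutation p = 0.0635, adjusted p = 0.0762).

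**Figure D2:**
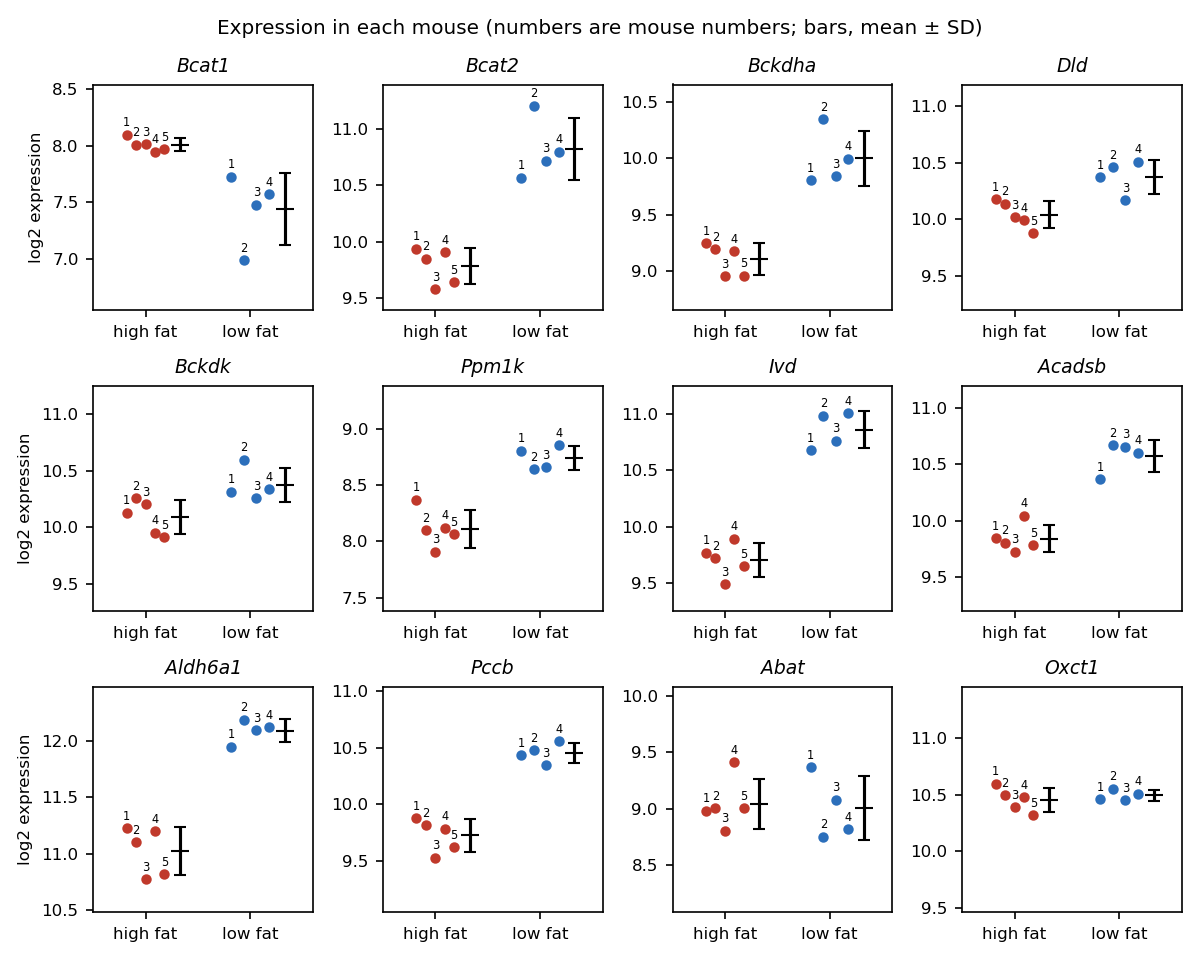
Log2 expression in each mouse for 12 of the genes, high fat mice in red and low fat mice in blue, with mouse numbers above the points and mean ± SD as bars; every panel spans the same range of log2 units. The diets were apart in Bcat2, Bckdha, Ppm1k, Ivd, Acadsb, Aldh6a1 and Pccb, in the opposite direction in Bcat1, and overlapped in Dld, Bckdk, Abat and Oxct1.

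In the leucine branch all 4 genes fell on the values as deposited, with Auh turning to 0.30 and higher relative to the adipocyte genes. Ivd, isovaleryl-CoA dehydrogenase, was at 9.77, 9.72, 9.49, 9.89 and 9.65 in high fat mice, against 10.7, 11.0, 10.8 and 11.0 in low fat mice. A gap of 0.78 log2 units separated the highest high fat mouse from the lowest low fat mouse. Ivd was 2.22-fold lower (-1.15 ± 0.09, SE, limma adjusted p = 6.44e-05). It stayed lower relative to the adipocyte genes, at -0.67.

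Mccc1 and Mccc2 encode the subunits of methylcrotonyl-CoA carboxylase, a biotin enzyme. Mccc1 was at 9.53, 9.30, 9.0, 9.35 and 9.02 in high fat mice, against 10.1, 10.5, 10.0 and 10.2 in low fat mice, and was 1.93-fold lower (-0.95 ± 0.12, SE, limma adjusted p = 0.00054). Mccc2 was 1.70-fold lower (-0.76 ± 0.08, SE, limma adjusted p = 0.00018). High fat mice 3 and 5 were the lowest for both subunits. Their differences were 0.19 apart, which did not pass after adjustment (exact permutation p = 0.0317, adjusted p = 0.0635). Auh, the methylglutaconyl-CoA hydratase, averaged 8.31 ± 0.05 in high fat mice and 8.50 ± 0.10 in low fat mice (SD, n = 5 and n = 4). It was 1.14-fold lower (limma adjusted p = 0.03), and that call was lost in 6 of the 9 fits that left out 1 mouse.

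The 3 genes assigned to isoleucine fell on the values as deposited, whereas relative to the adipocyte genes Acadsb stayed lower (-0.25) and Acat1 (-0.03) and Hsd17b10 (0.08) did not pass. Acadsb, the short and branched chain acyl-CoA dehydrogenase, was at 9.84, 9.81, 9.72, 10.0 and 9.78 in high fat mice, against 10.4, 10.7, 10.7 and 10.6 in low fat mice, and was 1.66-fold lower (-0.73 ± 0.08, SE, limma adjusted p = 0.000231). Acat1, the mitochondrial thiolase that also acts in ketone body breakdown, was 1.43-fold lower. Its high fat mice were nearly identical, at 10.8 ± 0.02, against 11.4 ± 0.10 for low fat mice (SD, n = 5 and n = 4). Hsd17b10, the dehydrogenase between them, was 1.32-fold lower (-0.40 ± 0.07, SE, limma adjusted p = 0.00284).

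In the valine branch 5 of 7 genes fell, and Abat and Agxt2 did not pass; relative to the adipocyte genes Aldh6a1, Hibch and Echs1 stayed lower, Hibadh did not pass (-0.03), and Acad8 (0.22), Abat (0.52) and Agxt2 (0.39) were called higher, as most genes were on that scale. Aldh6a1, the methylmalonate semialdehyde dehydrogenase at the end of the branch, was at 11.2, 11.1, 10.8, 11.2 and 10.8 in high fat mice, against 11.9, 12.2, 12.1 and 12.1 in low fat mice. The groups were 0.72 log2 units apart at their nearest mice, and Aldh6a1 was 2.09-fold lower (-1.06 ± 0.10, SE, limma adjusted p = 0.000141). A second probe set for Aldh6a1, not used in the count, showed a difference of -1.08.

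Hibch, which releases the branched acid from its coenzyme, was 1.75-fold lower (-0.80 ± 0.12, SE, limma adjusted p = 0.00118). Echs1, a hydratase shared with fatty acid oxidation, was 1.63-fold lower (-0.70 ± 0.09, SE, limma adjusted p = 0.000652). Hibadh, the 3-hydroxyisobutyrate dehydrogenase, averaged 11.6 ± 0.14 in high fat mice and 12.2 ± 0.03 in low fat mice (SD, n = 5 and n = 4), 1.43-fold lower. Acad8, isobutyryl-CoA dehydrogenase, was the least lowered of the 5 and 1.20-fold lower (-0.27 ± 0.08, SE, limma adjusted p = 0.0368). Its call was lost in 6 of the 9 fits that left out 1 mouse.

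Abat, the 4-aminobutyrate transaminase, was at 8.98, 9.01, 8.81, 9.41 and 9.01 in high fat mice, against 9.37, 8.75, 9.08 and 8.82 in low fat mice. High values occurred in both diets, in high fat mouse 4 and low fat mouse 1, and the difference was 0.04 (95% confidence interval -0.28 to 0.36, limma adjusted p = 0.893). Agxt2, a mitochondrial aminotransferase, lay between 5.49 and 5.74 in high fat mice and between 5.67 and 5.87 in low fat mice. All these Agxt2 values were below the medians of the arrays, and whether they lie above background was not determined. Its difference was -0.09 (95% confidence interval -0.23 to 0.04, limma adjusted p = 0.335).

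In the propionate pathway, 5 of 7 genes fell on the values as deposited, and relative to the adipocyte genes Pccb and Mut stayed lower, Pcca (-0.06) and Mmachc (0.18) did not pass, and Mcee turned higher (0.23). Pccb, the beta subunit of propionyl-CoA carboxylase, was at 9.88, 9.82, 9.53, 9.78 and 9.62 in high fat mice, against 10.4, 10.5, 10.3 and 10.6 in low fat mice. The groups did not overlap, and Pccb was 1.66-fold lower (-0.73 ± 0.08, SE, limma adjusted p = 0.000196). Pcca, the alpha subunit that carries biotin, was 1.45-fold lower (-0.54 ± 0.08, SE, limma adjusted p = 0.00106). The differences of Pccb and Pcca were -0.19 apart and did not pass (exact permutation p = 0.0635, adjusted p = 0.0762).

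Mut, the cobalamin-dependent methylmalonyl-CoA mutase, was at 9.74, 9.57, 9.45, 9.69 and 9.47 in high fat mice, against 10.2, 10.4, 10.2 and 10.4 in low fat mice. It was 1.62-fold lower (-0.69 ± 0.07, SE, limma adjusted p = 0.000221), with every high fat mouse below every low fat mouse. Mcee, the epimerase before it, was 1.20-fold lower (-0.26 ± 0.06, SE, limma adjusted p = 0.0123). Mmachc, which processes cobalamin in the cytosol, was 1.23-fold lower (-0.30 ± 0.07, SE, limma adjusted p = 0.0089).

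Mmaa and Mmab act on cobalamin in mitochondria, Mmab making adenosylcobalamin and Mmaa helping to load it onto the mutase. Mmaa was at 7.62, 7.59, 7.19, 7.51 and 7.43 in high fat mice, against 7.60, 8.0, 7.62 and 7.91 in low fat mice. High fat mouse 1 just reached the low fat range, and the difference of -0.32 (95% confidence interval -0.56 to -0.07) had a limma adjusted p of 0.0659. Mmaa passed at 0.0333 with quantile normalization repeated (-0.37). Mmab averaged 8.79 ± 0.14 in high fat mice and 8.90 ± 0.14 in low fat mice (SD, n = 5 and n = 4), with a difference of -0.11 (95% confidence interval -0.29 to 0.08) that did not pass (limma adjusted p = 0.435).

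Neither gene of ketone body use passed on the values as deposited. Relative to the adipocyte genes Oxct1 was at 0.45 and Bdh1 at 0.60, close to the median of all genes on that scale (0.48). Oxct1, the transferase that activates acetoacetate, was at 10.6, 10.5, 10.4, 10.5 and 10.3 in high fat mice, against 10.5, 10.6, 10.5 and 10.5 in low fat mice. High fat mice lay on both sides of the low fat mice, and the difference was -0.04 (95% confidence interval -0.17 to 0.09, limma adjusted p = 0.705). Bdh1, the 3-hydroxybutyrate dehydrogenase, lay between 5.66 and 5.81 in high fat mice and between 5.46 and 5.70 in low fat mice, below the medians of the arrays, with a limma adjusted p of 0.223. Whether Bdh1 lies above background was not determined. The differences of Bdh1 and Oxct1 were 0.15 apart, which did not pass (exact permutation p = 0.111, adjusted p = 0.111).

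The genes also ranked the mice within a diet. High fat mouse 1 was the highest of its diet in 21 of the 32 genes and high fat mouse 3 the lowest in 22. The same was not counted over all genes, and high fat mice 1 and 2 had the widest distributions of values. Low fat mouse 2 was the highest of its diet in 15. Without that mouse 22 of the 32 genes were called lower and 1 higher, with 1705 lower and 2385 higher over all genes. The mean over the 32 genes was 9.47, 9.39, 9.24, 9.40 and 9.27 in high fat mice, against 9.78, 9.90, 9.76 and 9.89 in low fat mice. High fat mice 3 and 5 were the lowest, as they were in the adipocyte list (11.6 each), and high fat mouse 4 was the highest of its diet in that list (11.8). Macrophage genes averaged 11.1, 11.3, 11.4, 10.7 and 10.9 in high fat mice, against 9.65, 9.40, 9.52 and 9.20 in low fat mice, and all 10 rose. Fibroblast and progenitor genes averaged 11.0 to 11.6 in high fat mice and 10.4 to 10.8 in low fat mice, with 4 of 7 higher. The part of these cell types in the results was not tested. Without high fat mouse 1, the mouse with the most skeletal muscle signal, 24 of the 32 genes were called lower and 1 higher. Over all genes that fit gave 1826 lower and 2365 higher. With the skeletal muscle list as a covariate 24 were again lower and 1 higher, with 1977 lower and 2658 higher over all genes. The part of skeletal muscle in the results was not tested either.

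The adipocyte list itself fell, with 9 of its 10 genes lower and the list mean 0.48 lower in high fat diet. Its members fell by unequal amounts, with Fabp4 at -0.10 and not called, Adipoq at -0.36 and Slc2a4 at -1.20. Centring on that list raised the median difference of all genes to 0.48. Against that shift, the 13 genes still called lower were Bcat2, Bckdha, Bckdhb, Dbt, Ivd, Mccc1, Mccc2, Acadsb, Echs1, Hibch, Aldh6a1, Pccb and Mut, from -0.67 for Ivd to -0.18 for Bckdhb. The median of the 32 genes was -0.03 on that scale.

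**Figure D3:**
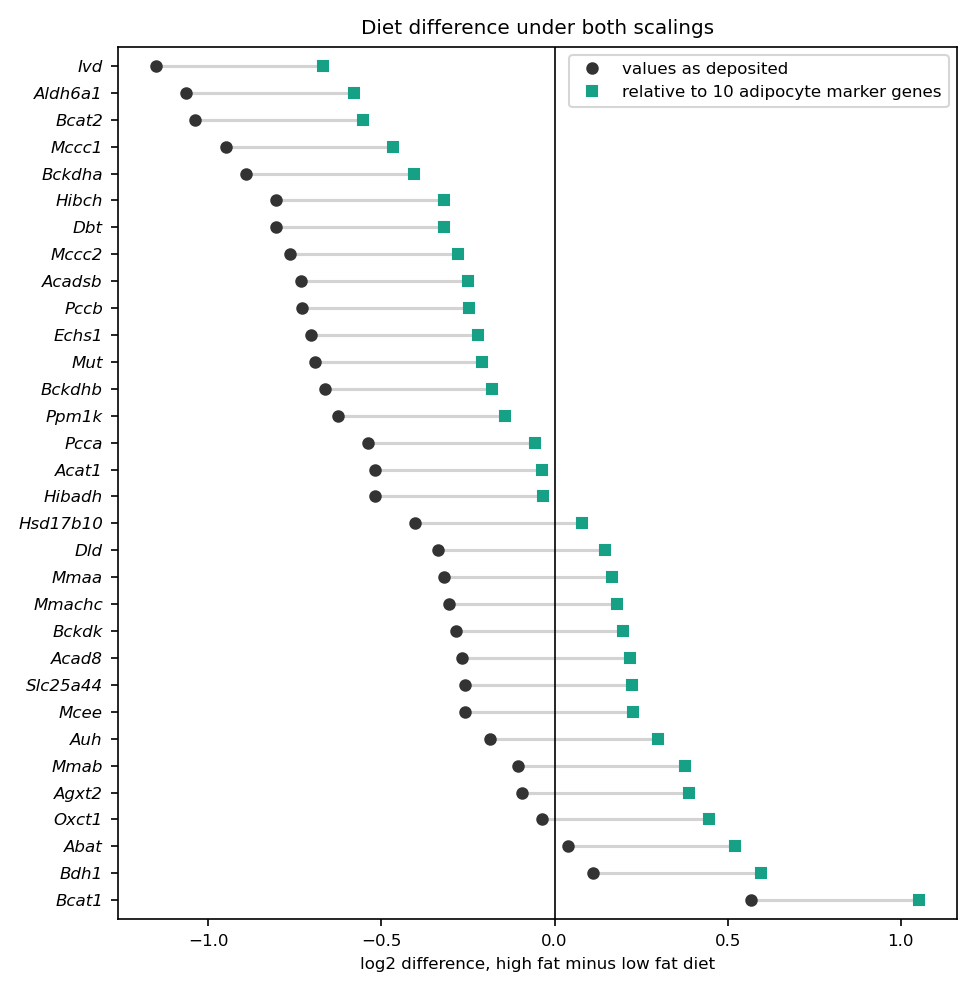
Log2 difference between high fat and low fat diet for each gene on the values as deposited (circles) and with every array centred on its mean over 10 adipocyte marker genes (squares). Centring moved every gene by the same 0.48, with 13 genes then called lower, from Bckdhb to Ivd, and 10 called higher, against 1.17% and 92.6% of all genes; Bcat1, Abat and Bdh1 among the 10 were already above 0.

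Genes around the pathway were described from lists of known roles, also chosen with earlier results of these data known. Centring on the adipocyte genes adds 0.48 to each value, which turns every decrease smaller than that. Beside the counts below, 9.13% of all genes were called lower and 12.4% higher on the values as deposited. Of 10 transcription regulators, 7 fell on the values as deposited and none rose, with a median of -0.49. Klf15, a transcription factor known to drive amino acid breakdown, was at 7.86, 7.66, 7.48, 7.99 and 7.64 in high fat mice, against 8.68, 9.20, 8.45 and 8.98 in low fat mice. The diets did not overlap, and Klf15 was 2.15-fold lower (-1.10 ± 0.15, SE, limma adjusted p = 0.000763). Cebpa, a regulator of adipocyte differentiation that is also on the adipocyte list, was 1.51-fold lower and Srebf1, a regulator of lipid synthesis, 1.42-fold lower. Pparg, another of the regulators, is on the adipocyte list as well.

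Among 12 measured genes of adjoining steps 5 fell and 1 rose, with a median of 0.0022. Aacs, which activates acetoacetate in the cytosol for lipid synthesis, was 2.40-fold lower, Acss3, a mitochondrial short chain acyl-CoA synthetase, 2.14-fold lower, and Suclg2, a subunit of succinyl-CoA ligase, 1.66-fold lower. Of 6 transporters of the plasma membrane, Slc43a1 was 1.90-fold lower, while Slc7a5 (1.35-fold), Slc43a2 (1.26-fold) and Slc3a2 (1.15-fold), the last named after its values were seen, were higher. Of 14 measured genes for lipoate, biotin, cobalamin and electron transfer, 1 fell, Mmadhc (1.13-fold lower), a share near the 9.13% of all genes called lower. Lias (-0.30) and Lipt1 (-0.23), which make and attach lipoate, did not pass.

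Related mitochondrial pathways are given beside the 32 genes by count and median, with no test between lists. Over all genes 9.13% were called lower and 12.4% higher. The lists are not fully separate, as Hadha, Hadhb and Acaa2 count both among the adjoining steps and in fatty acid oxidation. Of 12 genes of the pyruvate and 2-oxoglutarate dehydrogenases and their regulators, 7 fell and none rose (median -0.31), with the pyruvate dehydrogenase kinase gene Pdk2 1.85-fold lower, the subunit gene Pdha1 1.5-fold lower and Pdk1 1.27-fold lower. Of 20 measured genes of other amino acid breakdown, 7 fell and 2 rose (median -0.17). There the transaminase gene Gpt2 was 2.28-fold lower, Prodh, proline dehydrogenase, 2.00-fold lower and Dhtkd1, which acts in lysine breakdown, 1.90-fold lower. Of 22 measured respiratory chain genes, 10 fell and none rose (median -0.19), with Sdha 1.41-fold, Ndufb8 1.31-fold and Ndufs3 1.20-fold lower. Of 13 measured fatty acid oxidation genes, 5 fell and 1 rose (median -0.08), with Eci1 1.49-fold and Hadh 1.26-fold lower and Cpt1a 1.56-fold higher.

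**Figure D4:**
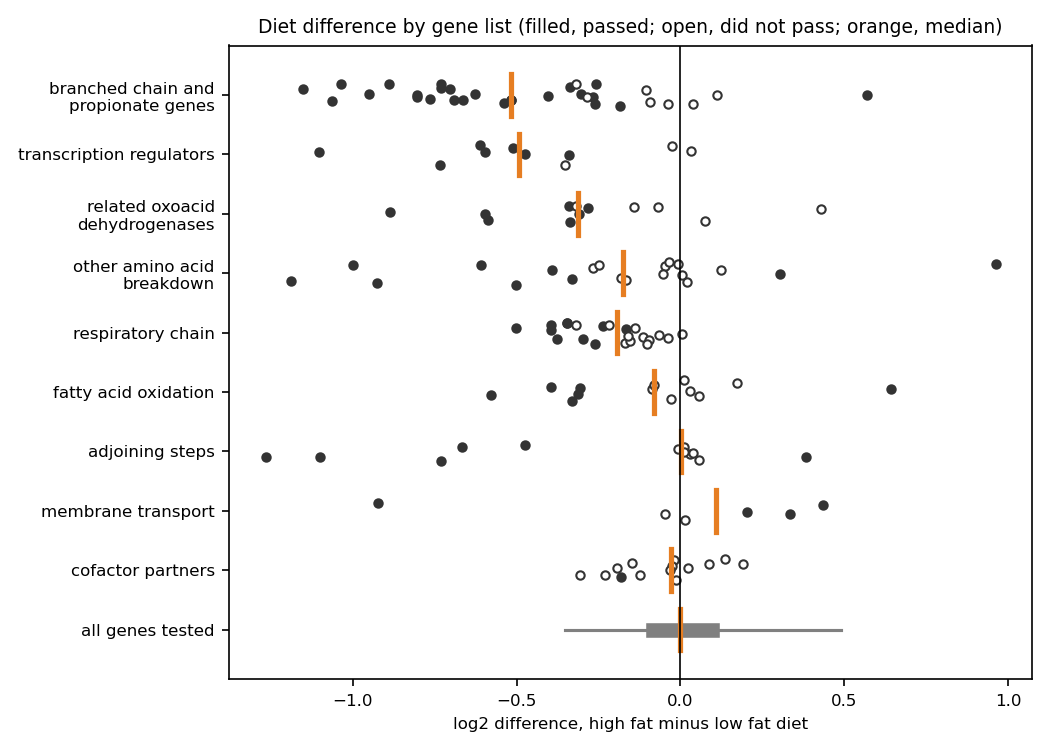
Log2 difference between high fat and low fat diet for each gene of the 32 and of 8 other lists on the values as deposited, with filled points for genes that passed, open points for those that did not, and orange bars for medians; for all genes tested the thick line spans the quartiles and the thin line the central range without the tails. The median was -0.52 for the 32 genes, -0.49 for transcription regulators and -0.19 for respiratory chain genes, before the uniform shift of 0.48 that centring on adipocyte genes adds.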

How the data were processed

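Periprostatic fat of 9 mice was measured on 9 arrays. The deposited values are log2 expression per probe set, and per the submitters' processing notes RMA, limma and R 3.5.0 were used, with no role or order given. RMA corrects background, equalises probe distributions across arrays and summarises probes, so small global shifts between diets can be removed. Annotation version, row filters and scan batches are not stated in those notes or in the labels.

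Of 33793 rows, 23521 had 1 gene symbol, 1814 several and 8458 were not listed. Each symbol kept its brightest probe set on average, which left 22180 genes. Diet was tested with limma 3.58.1 (lmFit, eBayes) in R 4.3.3, with no covariate. Pairs of genes were compared by two-sided exact permutation of each mouse's difference. The code was tested on simulated data. The 9 arrays set the precision. Promoter sequences come from RefSeq (GRCm38.p6).

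The 32 genes, the other lists and the pairs were chosen with earlier results of these data known. All 32 are named; other lists are named by their 3 smallest p, plus Klf15 and a gene not reported here.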

Additional observations from a re-analysis of the deposited data

Results flagged for a closer look

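In a scan of each diet group for a mouse far from the others, 2 of 64 groups of values of the 32 genes and 3 of 18 groups of marker list means stood out; chance gives about 1 in 20. Mmachc was 8.93 in high fat mouse 1, while mice 2 to 5 of that diet lay at 8.77 to 8.81. Agxt2 was 5.49 in high fat mouse 2, against 5.67 to 5.74 in the others. The skeletal muscle list mean was 8.80 in high fat mouse 1 and 7.60 in low fat mouse 4, and the smooth muscle list mean was 10.2 in low fat mouse 2.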

How the results depend on the processing

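Leaving out each mouse in turn gave 21 to 24 of the 32 genes lower and 1 higher, with 1526 to 1826 lower and 2153 to 2604 higher over all genes. Centring on the adipocyte list gave 13 lower, 10 higher and a median of -0.035, with 259 genes lower and 20546 higher over all genes, and it turned Dld (0.15), Bckdk (0.20), Auh (0.30), Acad8 (0.22), Hsd17b10 (0.080), Mcee (0.23), Mmaa (0.16), Mmab (0.38), Mmachc (0.18), Oxct1 (0.45), Slc25a44 (0.22) and Agxt2 (0.39) by its uniform shift. Testing against a minimum log2 difference of 0.25 left 17 of the 32 lower and 0 higher, and 407 genes lower and 764 higher. At an unadjusted p under 0.05, 27 of the 32 and 7254 of all genes passed on the values as deposited. Without high fat mice 1 and 2, 22 of the 32 were lower and 0 higher, since Bcat1 missed the threshold, and over all genes 1494 were lower and 1716 higher; median centring gave 3056 genes lower. Abat, not called, changed sign with quantile normalization (-0.0075), median centring (-0.0064), the mean of its probes (-0.014) and single mice left out (-0.055 to 0.16). With quantile normalization Mccc2 minus Mccc1 (0.18) and Pccb minus Pcca (-0.20) passed. Leaving out 1 mouse, Bcat2 minus Bcat1 (-1.79 to -1.33) and Bckdha minus Bckdhb (-0.28 to -0.11) lost their calls, as they did without high fat mice 1 and 2 (-1.65 and -0.23), where no exact p under 0.0571 is possible. With so few mice these losses say little about the pairs. Deviations of same-numbered mice correlated at 0.05 to 0.13, and 2 of 4 numbers correlated best with their own. These weak values do not settle whether mouse numbers pair the diets. With mouse number as a replicate block 22 of the 32 were lower, with 1615 genes lower and 2421 higher, and pair differences of -1.58 for Bcat2 minus Bcat1 and -0.19 for Bckdha minus Bckdhb did not pass, since 4 pairs allow no p under 0.125. Signal over background was not available, which limits Bdh1 and Agxt2.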

Other observations

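Agxt2 held the identical deposited value, 5.67, in 5 of the 9 arrays, 3 of high fat mice and 2 of low fat mice, and Mmab held 8.84 in both high fat mouse 2 and low fat mouse 4. No other of the 32 genes repeated a value between arrays.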
